A study of Homo sapiens with 6 samples.

Results

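Glutathione S-transferases (GSTs) join glutathione to reactive, electrophilic compounds, which makes them soluble and marks them for export from the cell. The cytosolic GSTs fall into classes named pi, mu, alpha, omega and others, the kappa class sits in mitochondria and peroxisomes, and the microsomal GSTs (MGSTs) are membrane proteins of the separate MAPEG family. Many GST genes are known targets of NRF2, a transcription factor that KEAP1 normally marks for degradation and that binds the antioxidant response element (ARE) of its targets. In squamous cancers with an active NRF2 pathway, GSTs are part of a detoxification program that is studied for its part in drug resistance.

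Here 10 GST genes were followed among the 58884 gene rows of the RNA sequencing matrix. They were selected by symbol to cover the enzyme families, with earlier results of these data known: GSTP1 (pi), GSTM2, GSTM3 and GSTM4 (mu), GSTA4 (alpha), GSTO1 (omega), GSTK1 (kappa), and the microsomal MGST1, MGST2 and MGST3. Each symbol stood on a single row, and all 10 passed the filter of a mean of at least 10 normalized counts over the libraries, GSTM2 only through its values in the KEAP1-deficient line.

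The study asked how NRF2 activation changes the behavior of esophageal squamous cell carcinoma (ESCC) cells. KYSE450 cells are human ESCC cells whose NRF2 is wild type, and 3 libraries came from this parental line. Another 3 libraries came from KEAP1null-KYSE450 cells, made from them with CRISPR-Cas9 and a guide to exon 2 of KEAP1. Both lines grew in RPMI1640 medium with serum and antibiotics and received no treatment. KEAP1null-KYSE450 is a monoclonal line, so loss of KEAP1 and any other feature of this clone cannot be told apart. Nothing in the sources says that the libraries of a line came from separate cultures, so the p-values measure only the spread between these libraries.

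Libraries held 54829313 to 57380170 normalized counts, and KEAP1 mRNA did not separate the lines (log2 fold change -0.02, limma adjusted p = 0.90 by the Benjamini-Hochberg method), although counts per gene do not show an edit. The paper checked the knockout by Sanger sequencing and, for the protein, by Western blotting. NFE2L2 mRNA, which encodes NRF2, fell by 0.47 on the log2 scale (adjusted p = 6.3e-04 from limma). All 6 squamous epithelial markers were abundant in both lines, with summed levels of 305893 to 411103 normalized counts in KYSE450 and 577775 to 716839 in KEAP1null-KYSE450 libraries. KRT5 was called higher and accounts for the higher sum, KRT6A was called lower, and TP63, SFN and CDH1 fell by adjusted p alone, by 0.60, 0.41 and 0.82 on the log2 scale. The 5 leukocyte markers summed to 6.42 to 19.2 and 7.38 to 22.2 normalized counts. Of 6 fibroblast markers only COL1A1 passed the filter on low values, and it fell by 0.85 on the log2 scale (limma adjusted p = 7.4e-04). Of 4 endothelial markers CDH5 and VWF passed the filter, and PECAM1 was at 0 in every library. CDH5 was called lower, from 10.7 to 28.9 normalized counts in KYSE450 libraries to 1.01 to 3.06 in KEAP1null-KYSE450 libraries. It had to differ in this direction, because only its KYSE450 values took it past the filter. The part of these markers in the GST results was not tested. The libraries of a line differed by transcript length. Over 12321 genes, the deviation of a gene from the mean of its line correlated with length with a Spearman's rho of 0.38, -0.26 and -0.30 in KYSE450 libraries 1, 2 and 3 and of 0.39, -0.06 and -0.46 in KEAP1null-KYSE450 libraries 1, 2 and 3. These are across genes of 1 library, which are not independent, and deviations within a line sum to 0. Genes with transcripts under 1500 bases had a median deviation of -0.17 and -0.15 log2 units in library 1 of the lines and of 0.03 to 0.13 in the others. The main transcripts of 9 of the 10 GST genes are shorter than that, and 6 of the 10 GST genes had their lowest value of the line in library 1 of KYSE450, and 6 in library 1 of KEAP1null-KYSE450, whereas 0 had it in library 3 of KEAP1null-KYSE450. The part of this trend in the results was not tested, and values without library 1 of both lines are given where they matter.

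The promoters are shown first because the ARE is the sequence through which NRF2 is known to reach its targets. RefSeq promoter windows (GRCh38.p14), from 250 bases before to 50 bases after a start site, were given for 9 of the 10 genes, MGST2 being the exception. They were searched on both strands for TGACNNNGC, the core of the ARE. Any AP-1 motif TGACTCA that overlaps it was recorded. Of 35116 promoters of the same length, 13.3% hold TGACNNNGC and 4.95% hold TGACTCA. The core was found in GSTP1, GSTA4 and GSTO1 and in 1 of 3 windows of MGST1. The sequences below run 5′ to 3′ in the direction of the gene, and capitals mark the core. For GSTP1 and GSTA4 the 250 bases before the start are printed, chr11:67583562-67583811 on the plus strand and chr6:52995285-52995534 on the minus strand.
GSTP1: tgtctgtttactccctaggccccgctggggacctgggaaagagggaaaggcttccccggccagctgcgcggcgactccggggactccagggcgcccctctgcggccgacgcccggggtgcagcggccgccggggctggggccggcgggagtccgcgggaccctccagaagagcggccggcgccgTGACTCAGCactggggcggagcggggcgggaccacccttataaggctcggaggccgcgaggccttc
GSTA4: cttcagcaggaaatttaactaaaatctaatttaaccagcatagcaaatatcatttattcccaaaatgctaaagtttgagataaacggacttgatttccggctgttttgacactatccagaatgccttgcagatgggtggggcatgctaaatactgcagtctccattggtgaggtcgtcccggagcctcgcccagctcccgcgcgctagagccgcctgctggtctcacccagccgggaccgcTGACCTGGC
The core of GSTP1 begins 66 bases before the start and overlaps an AP-1 motif, and that of GSTA4 begins 9 bases before it. The GSTO1 window held the core in 2 places, 226 and 161 bases before the start, at chr10:104254642-104254699 and chr10:104254706-104254764 on the plus strand. In MGST1 the core lay at base 31 after the start (chr12:16347135-16347163, plus strand).
GSTO1 distal: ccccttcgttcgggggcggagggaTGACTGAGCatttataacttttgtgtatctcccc
GSTO1 proximal: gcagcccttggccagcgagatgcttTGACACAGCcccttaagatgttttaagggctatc
MGST1: ggggacatcgTGACAAAGCaaattgtctg
The window of GSTM3, which among the 10 genes had the largest difference of those well above the floor in both lines, held no match. Its 250 bases before the start (chr1:109741039-109741288, minus strand) are printed for comparison.
GSTM3: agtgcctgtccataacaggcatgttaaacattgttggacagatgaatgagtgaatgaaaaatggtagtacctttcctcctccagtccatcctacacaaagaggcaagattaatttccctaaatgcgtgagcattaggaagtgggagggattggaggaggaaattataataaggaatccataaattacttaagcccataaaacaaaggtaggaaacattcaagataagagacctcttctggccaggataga
The windows of GSTM2, GSTM4, GSTK1 and MGST3 held none either. A match describes these letters only, and the absence of one refers to this window alone.

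Of the 10 GST genes, 4 were called higher in KEAP1null-KYSE450 cells and 0 were called lower. A call needed a limma adjusted p under 0.05 and a log2 fold change of 1 or more in size. The called genes were GSTM3, GSTM4, GSTA4 and GSTM2, the last of which had to differ because only its values in KEAP1null-KYSE450 took it past the filter. Without it, 3 of 9 genes were called higher. Over all 16701 genes tested, 12.2% were called higher and 5.98% lower, and with quantile normalization 8.31% and 7.72% were, with 4 GST genes called higher there too. GSTP1, GSTK1, MGST1 and MGST2 passed the p threshold with smaller differences. In all, 8 of the 10, GSTM2 included, rose by adjusted p alone, as did 24.3% of all genes tested, while 25.5% of all genes fell by it. GSTO1 and MGST3 did not pass. The same 8 genes were those whose lines did not overlap, with every KEAP1null-KYSE450 library the higher, as was so for 28.4% of all genes tested. For 29.3% every KEAP1null-KYSE450 library was the lower. The median log2 fold change was 0.84 over the 10, also with GSTM2 set to its lower bound, and 0.81 without GSTM2, beside 0.004 over all genes tested. The 4 called genes are also the members of this group that the study's NRF2 target gene list holds. How that list was drawn up was not examined here, so it is not independent evidence of their direction.

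**Figure D1:**
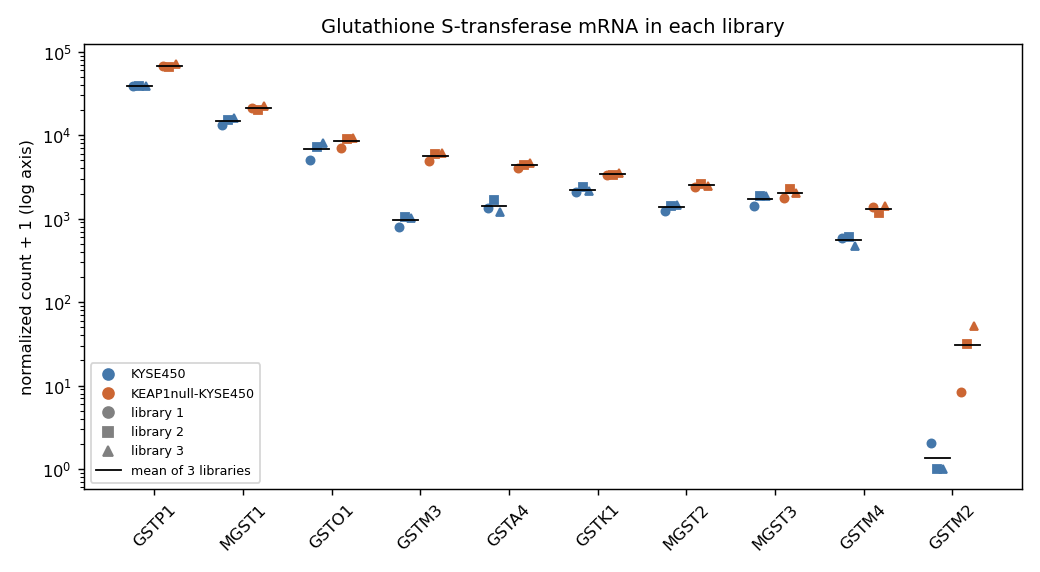
Normalized count plus 1 (log axis) of each GST gene in each of 3 KYSE450 (blue) and 3 KEAP1null-KYSE450 (orange) libraries, with marker shapes for library number and bars for the mean of a line. GSTP1 lies near the top at 38606 to 70894 normalized counts, GSTM2 lies at or below 1.07 in KYSE450, and the ranges of the lines overlap for GSTO1 and MGST3 only.

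GSTP1, the pi class enzyme, was the most abundant GST mRNA in both lines. It lies on the plus strand of chromosome 11 (chr11:67583742-67586656, hg38). The 3 KYSE450 libraries had 38923, 38606 and 38752 normalized counts of it, and the 3 KEAP1null-KYSE450 libraries had 67267, 66085 and 70894. Every KEAP1null-KYSE450 library was above every KYSE450 library, and the KYSE450 values had a coefficient of variation of 0.41%. The log2 fold change was 0.81 (SE 0.10, 95% interval 0.60 to 1.02, limma adjusted p = 2.5e-05 by the Benjamini-Hochberg method), which is 1.76 times in the means. GSTP1 thus rose by less than the fold change threshold.

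The mu class genes lie in a cluster on chromosome 1, in the order GSTM4, GSTM2, GSTM1, GSTM5 and GSTM3. GSTM4 begins at 109656099 and GSTM3 ends at 109741038 (hg38), while the annotation of GSTM5 runs on to 109775428. GSTM3 is read from the minus strand and the others from the plus strand. GSTM3 and GSTM4 rose, GSTM2 was above the floor only in KEAP1null-KYSE450 cells, and GSTM1 and GSTM5 were barely detected in either line.

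GSTM3 (chr1:109733932-109741038) had 791, 1045 and 1013 normalized counts in KYSE450 libraries and 4871, 5976 and 6098 in KEAP1null-KYSE450 libraries. The ranges were far apart, and library 1 was the lowest of each line. The means were 950 ± 138 and 5648 ± 676 normalized counts (SD, n = 3), a ratio of 5.95. The log2 fold change was 2.57 (SE 0.13, adjusted p = 9.0e-09 from limma), higher than 97.3% of all genes tested, and it lay between 2.45 and 2.68 under 18 other settings. No stretch of 75 bases of the main GSTM3 transcript occurs in a transcript of another gene.

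GSTM4 (chr1:109656099-109665496) had 579, 594 and 469 normalized counts in KYSE450 and 1363, 1178 and 1403 in KEAP1null-KYSE450 libraries. The ranges did not overlap, and the lowest KEAP1null-KYSE450 value came from library 2. GSTM4 rose by a log2 fold change of 1.27 (SE 0.13, 95% interval 0.98 to 1.55, adjusted p = 7.2e-06 from limma). The interval reached below the fold change threshold of 1, and a limma test against that threshold gave an adjusted p of 0.33. By that test 3.75% of all genes were called higher, among them GSTM3 and GSTA4. GSTM2 was called as well, but it reached the test only through its KEAP1null-KYSE450 values. Of the 75-base windows of its main transcript, 9.39% also occur in other mu class transcripts, so some reads may be split between the genes.

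GSTM2 (chr1:109668022-109709551) was near 0 in the parental line. It had 1.07, 0 and 0 normalized counts in KYSE450 and 7.38, 30.6 and 50.4 in KEAP1null-KYSE450 libraries. All KYSE450 libraries were below the 3 reads taken as the floor (2.80 to 3.21 normalized counts), and the KEAP1null-KYSE450 libraries varied widely around their mean of 29.5 ± 21.6 (SD, n = 3). Set against the highest of these floors, the KEAP1null-KYSE450 mean was at least 9.18-fold higher, and at least 5.92-fold higher without library 3. The fitted log2 fold change of 4.23 (SE 0.86) depends on the pseudocount, from 1.76 at a pseudocount of 10 to 6.64 at 0.1, and is no bound. Because GSTM2 passed the filter on low values only through the KEAP1null-KYSE450 libraries, no p-value is given for it, and without library 3 of that line it did not pass. Of the 75-base windows of its main transcript, 40.8% also occur in other transcripts, mainly of GSTM1, which overlaps it on the same strand. GSTM1 had 2.14, 0 and 0 normalized counts in KYSE450 libraries and 4.61, 0 and 0 in KEAP1null-KYSE450 libraries. GSTM5 was at 0 in all 6 libraries.

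By the smallest root-mean-square difference of centred log2 values over the 6 libraries, the genes most like GSTM2 were AKR1C6P, CLEC19A, CYP4B1, AC130686.1 and KIAA1211L, with differences of 0.54 to 0.62 log2 units. They reached 10.2 to 46.4 normalized counts in KEAP1null-KYSE450 libraries, and the measure itself selects genes that share the low KYSE450 values of GSTM2.

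GSTA4, the alpha class enzyme known for conjugating the lipid peroxidation product 4-hydroxynonenal, lies on the minus strand of chromosome 6 (chr6:52977948-52995304). It had 1335, 1690 and 1203 normalized counts in KYSE450 and 4058, 4420 and 4603 in KEAP1null-KYSE450 libraries. The ranges were well apart. GSTA4 rose 3.09 times in the means, with a log2 fold change of 1.64 (SE 0.12, adjusted p = 4.7e-07 from limma), and its lower 95% limit of 1.37 lay above the fold change threshold. It stayed called under all 18 other settings. Its promoter, printed above, holds the ARE core next to the start, whereas the promoter of GSTM3 holds none in the window searched. The other genes with a core, GSTP1, GSTO1 and MGST1, were not called. The other called genes, GSTM2 and GSTM4, had none in their windows. A link between the core and the differences was not tested.

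GSTO1, the omega class enzyme with glutathione-dependent reductase activity, lies on chromosome 10 (chr10:104235356-104267459). It had 5045, 7191 and 7994 normalized counts in KYSE450 and 7046, 9038 and 9373 in KEAP1null-KYSE450 libraries. The ranges overlapped only through library 1 of KEAP1null-KYSE450, at 7046, which was below the highest 2 KYSE450 libraries. The log2 fold change was 0.35 (SE 0.16, 95% interval 0.004 to 0.69, adjusted p = 0.086 from limma). Without library 1 of both lines it was 0.28 with an adjusted p of 0.0056 from limma. Under 4 of 18 other settings the adjusted p was under 0.05, and the log2 fold change ran from 0.15 to 0.52. Apart from the limma test against a log2 fold change of 1, the adjusted p ran from 0.0056 (limma) to 0.36 (DESeq2). GSTO1 is therefore not called, and a difference of the size of the interval remains possible.

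GSTK1, the kappa class enzyme, lies on chromosome 7 (chr7:143244093-143270854). KYSE450 libraries had 2102, 2390 and 2139 normalized counts, against 3344, 3344 and 3483 in KEAP1null-KYSE450. The lines did not overlap, and the KEAP1null-KYSE450 values had a coefficient of variation of 2.36%. GSTK1 rose by a log2 fold change of 0.62 (SE 0.09, adjusted p = 1.7e-04 from limma), or 1.53 times in the means.

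The microsomal GSTs differed by less than the called mu and alpha class genes. MGST1, which also acts as a peroxidase on lipid hydroperoxides, lies on chromosome 12 (chr12:16347142-16609259) and had 13370, 15398 and 15991 normalized counts in KYSE450 libraries and 20909, 20253 and 22439 in KEAP1null-KYSE450 libraries. The lowest KEAP1null-KYSE450 library was above the highest KYSE450 library. MGST1 rose by a log2 fold change of 0.51 (SE 0.10, adjusted p = 0.0011 from limma), and by 0.44 without library 1 of both lines.

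MGST2, known also for leukotriene C4 synthesis, lies on chromosome 4 (chr4:139665768-139740745). It had 1243, 1423 and 1445 normalized counts in KYSE450 and 2377, 2631 and 2483 in KEAP1null-KYSE450 libraries. The ranges did not overlap. Its log2 fold change was 0.87 (SE 0.10, adjusted p = 2.4e-05 from limma), the largest among the GST genes that passed the p threshold only. MAML3, on the opposite strand, overlaps MGST2 and rose from a mean of 123 to 1265 normalized counts (log2 fold change 3.35). No source says that strand was used in counting, and without it reads from the overlap cannot be told apart.

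MGST3, with glutathione transferase and peroxidase activity, lies on chromosome 1 away from the mu cluster (chr1:165631213-165661796). It had 1414, 1843 and 1853 normalized counts in KYSE450 and 1750, 2291 and 2025 in KEAP1null-KYSE450 libraries. The ranges overlapped, and library 1 was again the lowest of each line. The log2 fold change was 0.25 (SE 0.13, 95% interval -0.04 to 0.54, adjusted p = 0.14 from limma), the smallest of the 10, and the adjusted p was under 0.05 under 0 of 18 other settings. The genes most like MGST3 over the 6 libraries were TRIQK, BLZF1, BLOC1S2, KLHL7 and RPL14P1, with root-mean-square differences of 0.023 to 0.034 log2 units.

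**Figure D2:**
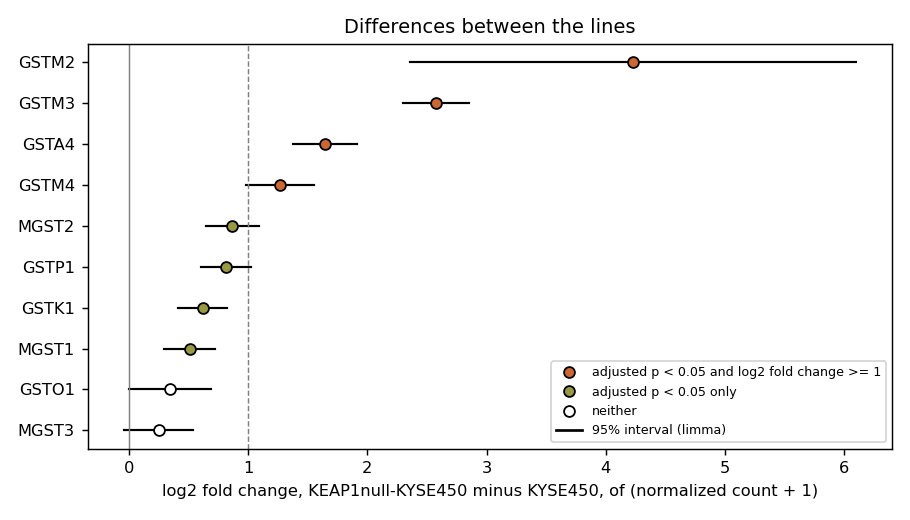
Log2 fold change (KEAP1null-KYSE450 minus KYSE450) of normalized count plus 1 for each GST gene, with 95% intervals from limma (n = 3 libraries a line) and a dashed line at the threshold of 1. GSTM2, GSTM3, GSTA4 and GSTM4 lie above 1, from 4.23 to 1.27, with GSTM2 the least precise, and only the interval of MGST3 reaches below 0.

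To compare levels between genes, normalized counts were divided by the length in kb of the union of annotated exons. The summed level of the 10 genes was 28822, 30587 and 30912 normalized counts per kb in KYSE450 and 50083, 51023 and 54351 in KEAP1null-KYSE450 libraries. Each KEAP1null-KYSE450 library was above each KYSE450 library, and the ratio of the means was 1.72. The exact two-sided permutation test gave p = 0.10, the smallest value that 3 against 3 libraries allow.

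GSTP1 made up most of this sum in both lines. Its share was 73.1% ± 3.04 in KYSE450 and 74.5% ± 1.44 in KEAP1null-KYSE450 cells (SD, n = 3), a difference within the spread of the libraries (exact permutation p = 0.60). The lines overlapped through library 1 of KYSE450, at 76.6%. Without library 1 of both lines the difference was 2.37 percentage points (exact permutation p = 0.33, the smallest value that so few libraries allow). GSTO1 was second, with shares of 13.2% ± 2.55 and 9.66% ± 1.17, and MGST1 came next, with 6.65% ± 0.37 and 5.50% ± 0.14. The shares of GSTM3 were 0.66% ± 0.07 and 2.29% ± 0.22, and those of GSTA4 were 2.23% ± 0.39 and 4.00% ± 0.14. The largest fold changes thus belonged to genes that remained minor parts of the sum.

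In KYSE450 cells the order of levels per kb was GSTP1, GSTO1, MGST1, GSTA4, GSTK1, MGST2, MGST3, GSTM3, GSTM4 and GSTM2. The ranges of neighbours in this order overlapped only for MGST3 and GSTM3. In KEAP1null-KYSE450 cells GSTM3 came directly after GSTA4 and before GSTK1, at 1189 normalized counts per kb. GSTK1 and MGST2 then overlapped, as did MGST3 and GSTM4. The order depends on which length is used. With the length of the main annotated transcript in place of the union of exons, GSTM3 stood below MGST2, GSTK1 and MGST3 in both lines, and it passed only GSTM4 between them. The shares of GSTM3 were then 0.27% and 0.98% and those of GSTA4 were 1.35% and 2.52%. MGST1 came before GSTO1 in both lines, with shares of 19.2% and 16.4%, and the share of GSTP1 was 62.4% in KYSE450 and 65.9% in KEAP1null-KYSE450 cells (exact permutation p = 0.30).

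**Figure D3:**
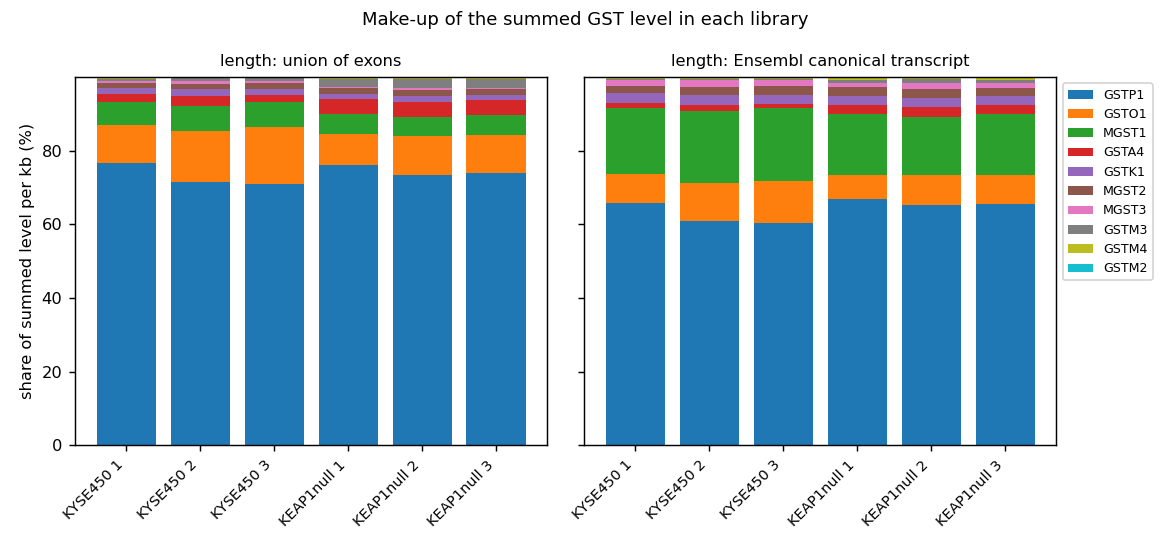
Share of each GST gene (%) in the summed level per kb of the 10 genes, stacked for each library, with length taken as the union of exons (left) or the main transcript (right). GSTP1 fills 71.1% to 76.6% of every bar on the left, and the GSTM3 and GSTA4 bands are wider in the KEAP1null-KYSE450 libraries.

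The other GST and MAPEG genes were described from a list of 17, of which GSTT1 had no row under that symbol in the matrix. Of these, 9 were tested, 4 were called higher and 1 lower, beside 12.2% and 5.98% of all genes tested. The median log2 fold change was 1.15. GSTA2 is among the 4 but had to differ, because its KYSE450 mean of 7.33 was below the filter of 10. GSTA1 and GSTA2, the major hepatic alpha class enzymes, had mean ratios of 13.1 and 27.9 between the lines. GSTA1 had 45.7 to 54.5 normalized counts in KYSE450 and 526 to 714 in KEAP1null-KYSE450 libraries (log2 fold change 3.68, adjusted p = 1.2e-08 from limma). GSTA2 had 5.05 to 8.56 normalized counts in KYSE450 and 173 to 237 in KEAP1null-KYSE450 libraries (log2 fold change 4.64). The 2 genes share 13.4% and 13.3% of their 75-base windows, so their counts are not fully separate. GSTO2, next to GSTO1, rose by a log2 fold change of 2.28, and GSTZ1, the zeta class enzyme of tyrosine breakdown, by 1.15. PTGES, a MAPEG member that makes prostaglandin E2, was the gene called lower, with 596 to 999 normalized counts in KYSE450 and 185 to 222 in KEAP1null-KYSE450 libraries (log2 fold change -1.98). GSTT2, GSTT2B, LTC4S and GSTCD did not pass the test, with log2 fold changes of -0.20 to 1.18, and 5 genes of the list were at or below the floor in both lines. GSTA3 was listed at 10.1 normalized counts in library 2 of KYSE450 and at or near 0 elsewhere.

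Glutathione itself is made from cysteine by GCL, whose subunits are GCLC and GCLM, and then by GSS. Of the 5 genes of synthesis and cystine uptake, 3 were called higher and 1 lower, beside 12.2% and 5.98% of all genes tested. GCLC rose by a log2 fold change of 3.98, GCLM by 3.36 and the cystine transporter SLC7A11 by 2.57. SLC3A2, the partner chain of SLC7A11 and of other amino acid transporters, fell by 1.15 on the log2 scale. GSS did not pass the test (log2 fold change 0.11).

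Glutathione conjugates leave the cell through ABCC transporters and are then trimmed to mercapturates. Of 19 genes of this route, 10 were tested, 3 were called higher and 0 lower, beside 12.2% and 5.98% of all genes tested, and the median log2 fold change was 0.02. By adjusted p alone 4 of the 10 were higher and 3 lower, the latter being ABCC4, CNDP2 and LAP3, which fell by 0.55, 0.65 and 0.26 on the log2 scale. ABCC2 had 33.4 to 57.8 normalized counts in KYSE450 and 6604 to 8296 in KEAP1null-KYSE450 libraries, a log2 fold change of 7.45 and the largest of any gene on these lists. ABCC3 rose by 5.48 and ABCC5 by 1.16 on the log2 scale. Of the enzymes that trim conjugates, 7 were at or below the floor in both lines, among them GGT1, DPEP1 and NAT8. Of 15 glutathione redox and glyoxalase genes, 3 were called higher and 0 lower, beside 12.2% and 5.98% of all genes tested. The log2 fold changes of the called genes were 3.15 for GPX2, 1.23 for GPX3 and 1.12 for GSR. By adjusted p alone 4 of the 15 rose and 4 fell, GLO1 by 0.68 on the log2 scale, which is close to the 24.3% and 25.5% of all genes tested.

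**Figure D4:**
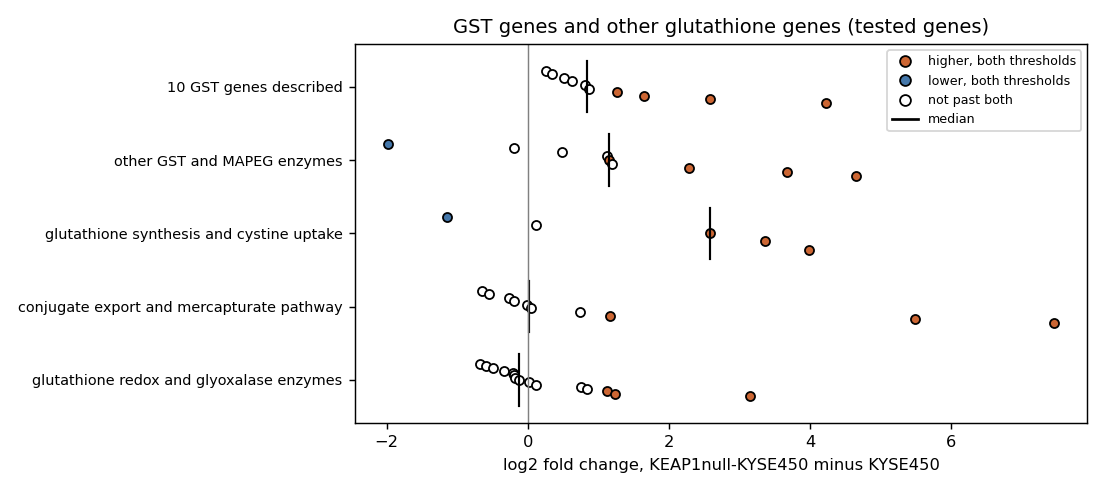
Log2 fold change (KEAP1null-KYSE450 minus KYSE450) of every tested gene in the 10 GST genes described and in 4 lists of related glutathione genes, with vertical bars at list medians and filled points past both thresholds. The medians were 0.84 for the 10 GST genes, 1.15 for other GST and MAPEG enzymes, 2.57 for synthesis and cystine uptake, 0.02 for conjugate export and -0.13 for redox enzymes.

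The position of the genes was examined with the 10 tested genes on each side of every GST gene. The median log2 fold change of these 20 neighbours lay between -0.37, at MGST3, and 0.42, at GSTA4. The neighbours of GSTM4, GSTM2 and GSTM3 had medians of -0.14, -0.06 and 0.004, so GSTM4 and GSTM3 stood above the medians of their surroundings. So did the GST genes outside the cluster, the uncalled GSTO1 and MGST3 among them, so this does not set the cluster apart. With medians in this range, any gene called higher had to do so. GSTM2 passed the filter only through KEAP1null-KYSE450, and its place depends on the pseudocount. At a pseudocount of 10 its log2 fold change of 1.76 was below the 2.56 of GSTM3. AMPD2, the tested gene just before the cluster, had a log2 fold change of -0.18. The neighbours called higher numbered 9 of 20 at GSTA4 and 7 of 20 at MGST1, beside 12.2% of all genes tested. At the other GST genes they numbered 2 to 4 of 20. At GSTA4 the called neighbours included GSTA2, GSTA1 and the pseudogene GSTA9P (log2 fold change 3.11) on one side. On the other were GCLC, GCLC-AS1 (4.41) and the unnamed gene ENSG00000231683 (9.36). Genes between GSTA4 and GCLC, such as CILK1, FBXO9 and ELOVL5, had log2 fold changes of 0.14, -0.10 and -0.35. GSTA2 had to differ, because its KYSE450 mean of 7.33 was below the filter of 10. For neighbours without printed levels this was not examined.

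**Figure D5:**
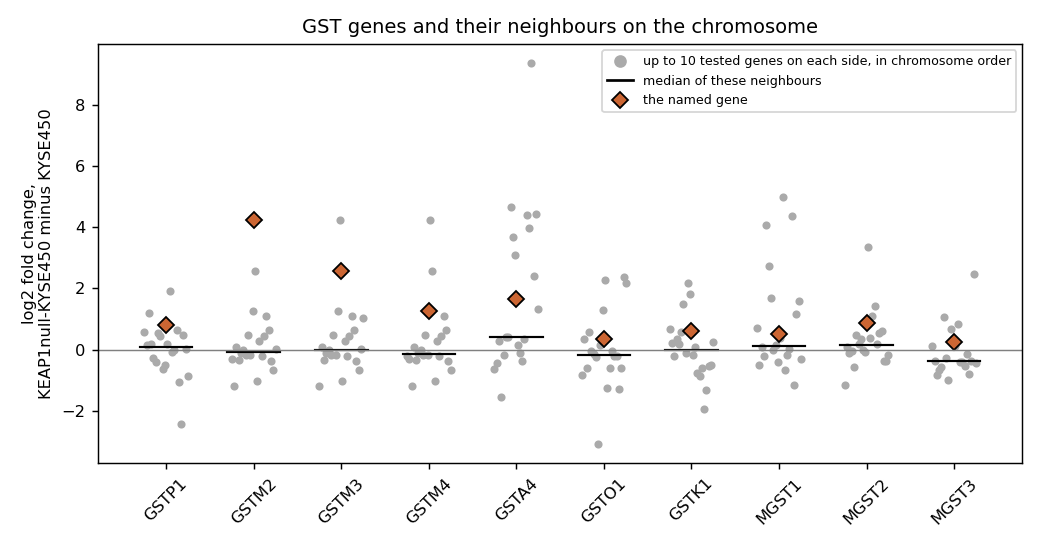
Log2 fold change (KEAP1null-KYSE450 minus KYSE450) of each GST gene (diamond) and of the 10 tested genes on each side of it (grey points, bar at their median). At a pseudocount of 1 GSTM2 lies above all 20 of its neighbours and GSTM3 above 19 of 20. GSTM2 passed the filter only through KEAP1null-KYSE450. Neighbours called higher numbered 9 of 20 at GSTA4 and 7 of 20 at MGST1, beside 12.2% of all genes tested. Of those at GSTA4, GSTA2 passed the filter only through KEAP1null-KYSE450.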

How the data were processed

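RNA sequencing of 3 KYSE450 and 3 KEAP1null-KYSE450 libraries was analysed. The authors filtered the reads, aligned them to hg38 with STAR (2.6.90c per the submitters' processing notes), counted reads per gene with featureCounts (1.5.1) and normalized the matrix. The deposited values are a signal, namely normalized counts of each gene. The columns are named by line with no replicate number, so libraries are numbered by column order. A RefSeq annotation is named in the methods, yet the rows carry Ensembl identifiers. Within a tolerance of 0.01 reads, 100% of the values are whole multiples of what 1 read is worth, and whole reads (53027359 to 61543442) could be recovered for 4 libraries. The floor was set at 3 reads, which covers counting error only.

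Differences were tested with limma 3.58.1 (R 4.3.3, trend) on log2(normalized count + 1) for genes with a mean of at least 10, adjusted by Benjamini-Hochberg over all 16701 genes tested. A fold change on this scale understates the change of low genes. The alternatives included edgeR 4.0.16 and DESeq2 1.42.0 on the recovered reads. Positions and lengths came from gencode v44, and promoters from RefSeq. The script for each test was tried on simulated data. The members, gene lists and alternatives were chosen with earlier results of these data known. The rule named all 10 GST genes, the called genes among other GST and MAPEG genes, up to 3 called genes a direction from each further list, and the 5 nearest patterns of the GST genes with the highest and lowest log2 fold change. Neighbouring genes, list genes named without a call and overlapping genes were named after their values were seen.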

Additional observations from a re-analysis of the deposited data

How the results depend on the processing

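No paired analysis was possible because the columns carry no replicate numbers. Under 18 other settings the sign of every GST log2 fold change was unchanged where the gene was tested, and 0 genes were called lower. Settings that alter only the filter, the variance fit or the cutoff keep the fold change of a tested gene, so they cannot change its sign. The count called higher was 8 with no fold change cutoff, which adds GSTP1, GSTK1, MGST1 and MGST2, and 3 or 4 otherwise. GSTM4 was lost in the limma test against a log2 fold change of 1. GSTM2 was not tested with edgeR, with a minimum mean of 100 or without library 3 of KEAP1null-KYSE450. With 1 library left out the count called higher was 3 to 4. The ratio of summed levels was 1.66 with the length of the longest and 1.66 with that of the main transcript, and 1.68 to 1.75 with 1 library left out, where the smallest exact permutation p was 0.20. The difference in GSTP1 share was 1.44 percentage points, and 0.45 to 3.19 with 1 library left out. Without library 1 of both lines, chosen after seeing the data, 4 genes were called higher. The fitted median of all genes moved by 0.1 log2 units or less under every setting. At 7.38 to 50.4 normalized counts in KEAP1null-KYSE450 libraries, the depth leaves the fold change of GSTM2 imprecise.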
